A study of Mus musculus with 6 samples.

Results

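The regions described here are the first 15 codons of messenger RNAs on which ribosomes left many footprints in mouse embryonic stem cells. A region was included where siCtrl and siPKM ribosome footprints in the first 15 codons summed to at least 100, which held for 2924 of 6535 table rows. With 1 row kept per gene symbol, 2922 of 6532 genes remained. They are called members below. The footprint counts themselves chose the members, so the size of a member's footprint count or share is given as a description.

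E14 is an established mouse embryonic stem cell line with a wild-type genotype in the 4 libraries compared here. The cells were transfected for 36 h at 20 nM with a pool of non-targeting siRNAs (siCtrl) or with a pool against pyruvate kinase M (siPKM), and all were replated 16 h before harvest. Both received cycloheximide, which arrests elongating ribosomes, at 100 µg/ml for 2 min. Footprints were cut with RNase A and RNase T1, not with the commoner RNase I, and ribosomes were collected through a sucrose cushion. For each siRNA pool, total RNA depleted of rRNA gave 1 library and ribosome-protected fragments (RPF) gave 1, so no difference between the groups has a replicate check and no test of the conditions was possible. Another 2 libraries held RNA crosslinked at 0.35 J per cm2 to PKM2 carrying a FLAG-HA tag, from E14 cells of the genotype PKM2_FLAG_HA. Knockdown here is partial and transient, and the labels do not say whether the libraries of a group came from 1 culture.

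A ribosome assembles on the start codon, and its first translocation steps set it on the way along the coding sequence (CDS). Footprints near the start therefore include ribosomes that have just begun and ribosomes that move slowly over the first codons. Cycloheximide given to living cells is known to let initiation go on while elongation is blocked, so that ribosomes pile up in this window, and its part in the values below was not tested. Proteins sent to the endoplasmic reticulum (ER) usually carry a hydrophobic signal peptide at this end, and many mitochondrial proteins carry a targeting peptide there. RNA reads of the same window depend on its length and on the transcript but not on ribosomes, and they serve as the comparison throughout.

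Over 5 transcript regions per gene, the RNA libraries summed to 19168326 reads in siCtrl and 16419697 in siPKM, and the RPF libraries to 17557792 and 14451369. The median member had 139 siCtrl and 112 siPKM footprints in the first 15 codons, and 54 and 45 RNA reads. Every gene in the table had at least 151 reads in the rest of the CDS in each of these libraries, so genes below that are not analysed here. Of 10 embryonic stem cell markers, 9 were in the table at 55.2 to 1233 CPM (counts scaled to rest-of-CDS RNA reads) in siCtrl, and 8 of them were members. Markers of other lineages summed to 77.5 (siCtrl) and 83.6 (siPKM) CPM for trophoblast (3 of 8 symbols in the table) and 63.0 and 100.0 for primitive endoderm (2 of 7). They summed to 177 and 125 for neural cells (3 of 4) and 229 and 304 for fibroblasts (Vim, 1 of 5). The trophoblast list held Tfap2c and its older symbol Tcfap2c, and only the older symbol was in the table. In bulk libraries, fewer cells of a type and less RNA per cell cannot be told apart, and the part of these markers in the values below was not tested.

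Knockdown of the targeted gene was visible in both kinds of library. Pkm (Pkm2 in the table, NM_011099), whose product ends glycolysis by making pyruvate, held 0.502% of rest-of-CDS RNA reads in siCtrl and 0.158% in siPKM. Among footprints it held 0.531% and 0.168%. Its footprints in the first 15 codons numbered 5461 in siCtrl and 1625 in siPKM, and its first-15 RNA reads 2424 and 664.

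The members held nearly all footprints of the window. They contributed 93.5% of first-15 footprints in siCtrl and 93.2% in siPKM, and 89.6% and 88.8% of first-15 RNA reads. The share of a gene is its first-15 reads as a percentage of its first-15 plus rest-of-CDS reads, where the rest of the CDS leaves out the last 5 codons. Summed over members, the footprint share was 8.59% in siCtrl (95% Clopper-Pearson interval 8.57 to 8.60) and 8.43% in siPKM (8.41 to 8.45). The RNA share was 4.88% (4.87 to 4.90) and 4.77% (4.75 to 4.78). Such intervals hold counting error alone, and amplified reads that lack molecular identifiers cannot be taken as independent molecules. The intervals around 8.59% and 8.43% do not overlap, but they take reads as independent. What 2 cultures of 1 condition would differ by is unknown.

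The median member had a footprint share of 7.80% in both siRNA groups and an RNA share of 3.83% in siCtrl and 3.69% in siPKM. Genes outside the members had medians of 3.06% and 3.07% for footprints and 1.93% and 1.88% for RNA. Footprint shares in siCtrl ran from 0.32% in Mdn1 to 98.7% in Rpl41. Across members the siCtrl footprint share followed the RNA share (Spearman rho 0.78 over 2776 genes), and both share the window length and the CDS length. The plot of footprint share against RNA share shows 2507 of 2776 members above the line of equal shares.

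**Figure D1:**
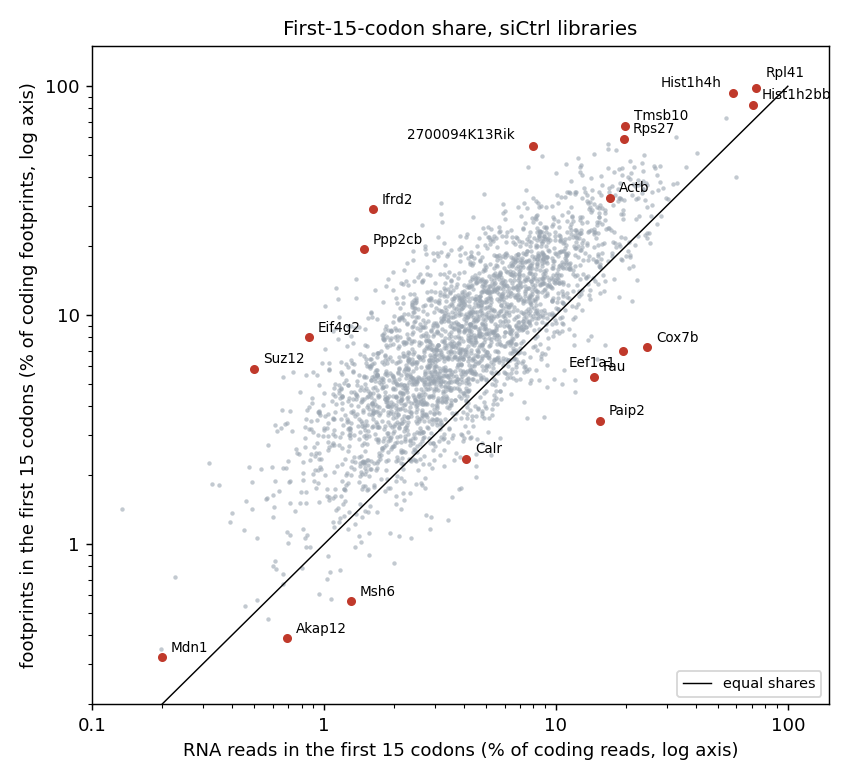
Share of coding reads in the first 15 codons in the siCtrl libraries, RNA on the x axis and footprints on the y axis, both in percent on log axes, with 1 point for each of 2776 members and the line of equal shares. Rpl41 lies at the upper right with 73.0% of RNA reads and 98.7% of footprints, Ifrd2 far above the line with 1.62% and 29.0%, and Paip2 and Cox7b far below it.

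Members with the highest footprint shares mostly encode small proteins, where 15 codons are a large part of the CDS, or histones. Rpl41, a very small protein of the large ribosomal subunit, had 15310 first-15 footprints in siCtrl and 12042 in siPKM, shares of 98.7% and 98.4%, against RNA shares of 73.0% and 73.1%. Thymosin beta-10 (Tmsb10), an actin monomer binder, had footprint shares of 67.3% and 66.4% and RNA shares of 19.9% and 14.3%. The ribosomal protein gene Rps27 had footprint shares of 58.9% and 55.1% over RNA shares of 19.6% in both groups. In these members the footprint share was above the RNA share in both siRNA groups.

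Others among the highest shares were Rpl36a (53.4% of footprints in siCtrl), thymosin beta-4 (Tmsb4x, 59.9%), selenoprotein H (2700094K13Rik in the table, now Selenoh, 54.9%) and the histone genes Hist1h4h (93.5%), Hist1h2bb (83.0%) and Hist1h3c (72.7%). Histone rows are uncertain. The histone coding sequences have near-identical copies, and how reads with several matches were counted is not given in the sources used here. In Hist1h4h only 226 siCtrl footprints lay between the first 15 and the last 5 codons, against 3273 in the first 15 and 1134 in the last 5. Its RNA reads were also fewest between, with 1005 in the first 15 codons, 728 between and 781 in the last 5. The contrast was much smaller in RNA than in footprints.

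The lowest footprint shares included several very large proteins. Mdn1 (midasin, a giant ribosome assembly ATPase) had 0.32% in siCtrl and 0.381% in siPKM over RNA shares of 0.199% and 0.263%. Eif4g1, the scaffold of the cap-binding complex, had 0.349% and 0.376% over 0.198% and 0.219%. Fatty acid synthase (Fasn), clathrin heavy chain (Cltc), Akap12, Hnrnpl, Prrc2c, Ipo7 and Msh6 were also among the lowest, from 0.387% to 0.608% in siCtrl. In Akap12, Ipo7, Msh6 and Prrc2c the footprint share was below the RNA share in both groups.

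The 10 members with the most first-15 footprints were abundant housekeeping messages. They were Ppia (cyclophilin A), Rpl41, Npm1 (nucleophosmin), Ptma (prothymosin alpha), Actb (cytoplasmic actin), Rpl9, Hist2h2bb, Rpl6, Rpl38 and Rps3a. Ppia had 16303 footprints in siCtrl and 12861 in siPKM, shares of 19.0% and 18.3%, over RNA shares of 10.8% and 10.5%. Actb had footprint shares of 32.5% and 33.5% over RNA shares of 17.1% and 17.3%. Rpl6, another protein of the large ribosomal subunit, had footprint shares of 16.5% and 16.4% over RNA shares of only 4.34% and 3.80%. Copies and pseudogenes of several of these genes make their single values uncertain too.

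**Figure D2:**
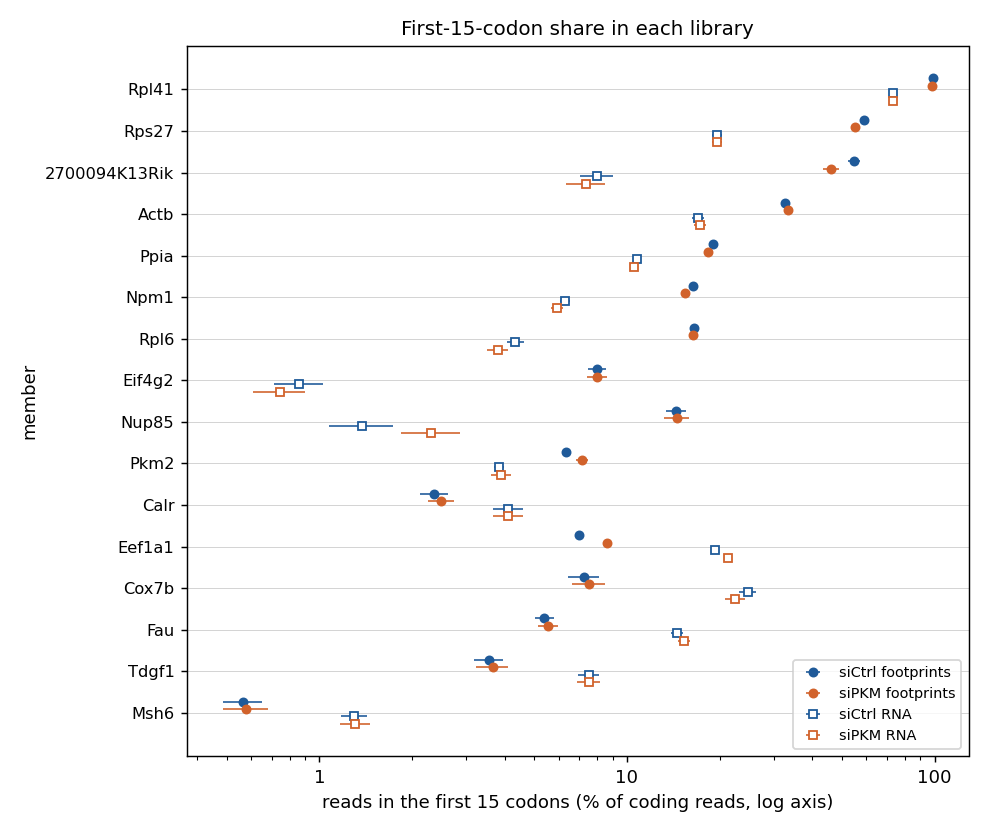
Share of coding reads in the first 15 codons in each of the 4 libraries for 16 members, in percent on a log axis, with filled circles for footprints, open squares for RNA, and 95% Clopper-Pearson bars. From Rpl41 down to Pkm2 the footprint circles lie to the right of the RNA squares, and from Calr (2.36% of siCtrl footprints, 4.11% of RNA) down to Msh6 they lie to the left, in both siRNA groups.

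To set footprints against RNA, first-15 reads were divided by rest-of-CDS reads in each library (the start-to-body ratio), and the log2 of the footprint ratio over the RNA ratio was taken in each siRNA group. This log2 value is called the start ratio. It is 0 where footprints and RNA are distributed alike and 1 where the window holds 2 times as many footprints, per footprint in the body, as its RNA would give. It was read where both RNA libraries had at least 10 first-15 reads, which 2776 members had. The other 146 fell below, 3 of them with no first-15 RNA read in at least 1 library. The members were picked on high first-15 footprints, which raises this ratio, so its level in members is a description only.

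The median start ratio was 1.03 in siCtrl and 1.04 in siPKM, and the middle 80% of members ran from 0.02 to 2.08 and from -0.02 to 2.12. It was above 0 in 2507 members in siCtrl and in 2486 in siPKM. Over all 4337 genes with enough RNA reads, 80.5% and 80.4% were above 0. Of the 2776, 2385 were above 0 in both groups, 168 below 0 in both and 223 on opposite sides. The 95% counting interval lay above 0 in both groups in 1939 members and below 0 in both in 67. Counts over both groups and interval counts were made for members only, so no share over all genes stands beside them. At a fold of 1.5, 1970 members were above in siCtrl, where 60.3% of all 4337 genes with enough RNA reads were, and 59 below, where 7.93% were. In siPKM the counts were 1966 (59.6% of all genes) and 74 (8.21%), and because the rule used these footprints nothing is read from the excess. With at least 40 first-15 RNA reads required, the medians were 0.81 and 0.78. First-15 RNA reads are in the denominator of the start ratio, so a higher floor on them picks lower ratios. Summed over both groups, they had a Spearman rho of -0.33 with the start ratio of each group over 2776 genes.

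The order of members was similar in both siRNA groups. The start ratios in siCtrl and siPKM had a Pearson r of 0.82 and a Spearman rho of 0.80 over 2776 genes, which share the window and sequence of each gene. For the 348 members with 1000 or more first-15 footprints, the medians were 1.05 and 1.00, and 22 were below 0 in both. At the other end of the CDS the same log2 measure was lower, though no floor was set on last-5 reads. The last 5 codons held fewer footprints than their RNA would give in most members, with medians of -0.51 in siCtrl and -0.47 in siPKM. In siCtrl 34.9% of members were above 0. Some last-5 counts were very low, as in Eef1a1 with 0 reads there in every library.

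**Figure D3:**
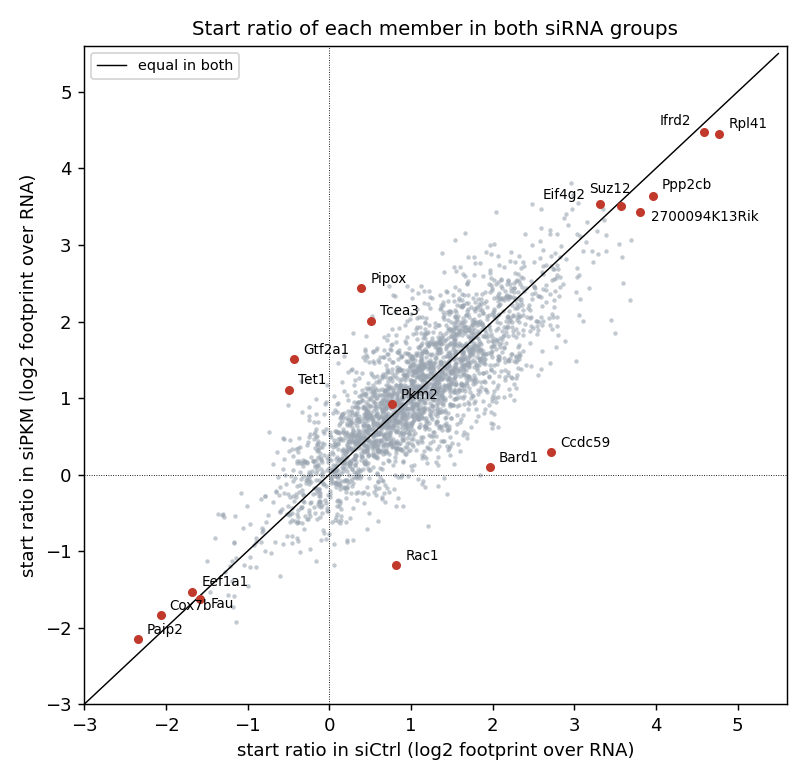
Start ratio (log2 of footprint over RNA start-to-body ratio) of each of 2776 members, siCtrl on the x axis and siPKM on the y axis, with the line of equal values and dotted lines at 0. Most points lie in the upper right quadrant around the line. Rpl41 and Ifrd2 are at the top, Paip2 and Cox7b at the bottom in both groups, and Pipox, Gtf2a1, Ccdc59 and Rac1 lie away from the line.

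The highest start ratios in siCtrl were found in members of mixed function. Ifrd2, known as a translation factor that binds idle ribosomes, had 96 first-15 footprints in siCtrl and 77 in siPKM, shares of 29.0% (24.2 to 34.2) and 23.4% (18.9 to 28.4). Its RNA shares were only 1.62% and 1.31%, from 16 and 14 reads. Its start ratios were 4.60 (95% counting interval 3.81 to 5.38) and 4.48 (3.65 to 5.31), so both groups placed it near the top.

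Ppp2cb, a catalytic subunit of protein phosphatase 2A, had footprint shares of 19.5% and 20.0% over RNA shares of 1.49% and 1.93%, with start ratios of 3.96 and 3.64. Selenoprotein H had footprint shares of 54.9% and 46.2% over RNA shares of 7.98% and 7.35%, with start ratios of 3.81 and 3.43. Suz12, a core subunit of Polycomb repressive complex 2, had 169 and 153 first-15 footprints but 12 and 13 RNA reads, and start ratios of 3.58 and 3.51. Rpl41 (4.78 and 4.45), the transcription factor Tead2 (3.70 and 3.06), Taf11 of the TFIID complex (3.68 and 2.28), Wdr55 (3.60 and 2.50), the nucleoporin Nup85 (3.59 and 2.84) and Zfp277 (3.55 and 3.02) completed the 10. With the last 5 codons added to the denominator, the siCtrl start ratio of Rpl41 was 2.95, below the other 9. Taf11 had 10 and 20 RNA reads in the window and Wdr55 33 and 55, and both are the members of this set whose value moved most between the groups.

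In the 10 members with the lowest start ratios the footprint share was below the RNA share in both groups. Paip2, an inhibitor of poly(A)-binding protein, had footprint shares of 3.46% (2.72 to 4.33) and 4.05% (3.17 to 5.08) over RNA shares of 15.5% and 15.8%. Its start ratios were -2.34 (-2.74 to -1.94) and -2.15 (-2.57 to -1.73). Cox7b, a small subunit of cytochrome c oxidase, had footprint shares of 7.25% and 7.51% over RNA shares of 24.7% and 22.5%, with start ratios of -2.06 and -1.84. These are members with many RNA reads in the window, 195 and 160 for Paip2 and 744 and 588 for Cox7b.

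Eef1a1, the factor that delivers aminoacyl-tRNA to the ribosome, was the most deeply covered of the low members. It had 4042 first-15 footprints in siCtrl and 5067 in siPKM, and 6990 and 6497 RNA reads. Its footprint shares of 7.0% and 8.61% were below its RNA shares of 19.4% and 21.4%, with start ratios of -1.68 and -1.53. Fau, whose product is a fusion of a ubiquitin-like domain with ribosomal protein S30, had start ratios of -1.58 and -1.62, and Hist4h4 of -1.50 and -1.13. Eef1a1, Fau and histones have near-identical genomic copies, so these values are uncertain.

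The other 5 of the lowest 10 were Psap, the precursor of the lysosomal saposins (-1.46 in siCtrl and -1.54 in siPKM), Snrpa of the U1 snRNP (-1.40 and -0.83), Anapc11 of the anaphase-promoting complex (-1.36 and -0.51), Tpd52l2 (-1.32 and -0.53) and Rnps1 of the exon junction complex (-1.31 and -0.51). All were below 0 in both siRNA groups. The last 4 of these, ranked on their siCtrl values, were all less negative in siPKM.

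The gene lists are described next by their counts and medians, beside the medians of 1.03 and 1.04 over all 2776 members. Of these members, 2507 (90.3%) were above 0 in siCtrl and 2385 were above 0 in both groups. Over all 4337 genes with enough RNA reads, 80.5% were above 0 in siCtrl. Of 71 cytosolic ribosomal proteins among the members, 67 had a siCtrl start ratio above 0, with medians of 1.13 in siCtrl and 1.14 in siPKM. Their median footprint share was 17.3% and 17.0% over RNA shares of 9.37% and 9.28%, from Fau at the bottom to Rpl41 at the top. The 17 nascent chain factors, which process or bind the emerging peptide, had medians of 1.48 and 1.24 and 16 of 17 above 0 in both groups. Among them Nmt2, which attaches myristate to N-terminal glycine, had the highest (2.30) and Naa20, the catalytic subunit of the acetyltransferase NatB, the lowest (-0.08).

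The 30 initiation factors with enough RNA had medians of 0.78 and 0.79, and 28 were above 0 in both groups. Eif4g2, known for starting at a GUG codon in place of AUG, had 758 and 690 first-15 footprints and 119 and 108 RNA reads. Its footprint shares were 8.01% and 7.99% over RNA shares of 0.861% and 0.742%, giving 3.32 and 3.53. Eif3h was the lowest, at -0.46 and -0.59. Elongation and release factors (16) had medians of 1.10 and 1.13 and aminoacyl-tRNA synthetases (19) of 1.09 and 0.84, from Vars (-0.56) to Farsa (2.32).

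Next came lists of the secretory pathway. The 19 ER chaperones and folding enzymes had medians of 0.31 in siCtrl and 0.24 in siPKM, with 14 above 0 in siCtrl and 10 above 0 in both. Calreticulin (Calr), a lectin chaperone, had 350 and 406 first-15 footprints, shares of 2.36% and 2.48% over RNA shares of 4.11% in both groups, and start ratios of -0.83 and -0.75. Fkbp9, an ER prolyl isomerase, was the highest (1.86 and 1.21).

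The medians of 9 lysosomal and Golgi proteins were 0.39 and 0.29 and those of 14 secreted and matrix proteins 0.43 and 0.77. In the secreted list Sparc, a matrix glycoprotein, was the highest (2.31 and 1.67) and Tdgf1, a membrane-anchored Nodal co-receptor of stem cells, the lowest (-1.14 and -1.10). Grouped after these values were seen, the 3 lists held 42 genes with medians of 0.36 and 0.33, 32 of them above 0 in siCtrl. All 10 plasma membrane receptors and adhesion proteins were above 0 in both groups with medians of 0.85 and 0.74, and 26 solute carriers had medians of 1.15 and 1.26. The protein sequences of the first 15 residues are not analysed here.

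Further lists were read in the same way. The nuclear-encoded respiratory chain (73 genes) had medians of 0.57 and 0.60, from Cox7b to Ndufb10 (2.52), and 57 of 73 were above 0 in both groups. Mitochondrial ribosomal proteins (61) had 1.03 and 0.86, proteasome and chaperonin subunits (39) 0.72 and 0.64, cell cycle genes (25) 0.59 and 0.79 and glycolytic enzymes (8) 0.69 and 0.79. Pluripotency genes (22) had 0.39 and 0.69, from Tdgf1 to Fgf4 (1.82 and 1.11). For the 24 pluripotency genes among all members, footprints upstream of the start codon were also counted. Their median was 10.1 5′ UTR footprints per 100 footprints of the whole CDS in siCtrl, against 3.19 over all 2922 members. The 5′ UTR RNA reads of this list are not given here, so its median has no RNA comparison. The lists are small, overlap in a few genes, and were not tested against each other.

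**Figure D4:**
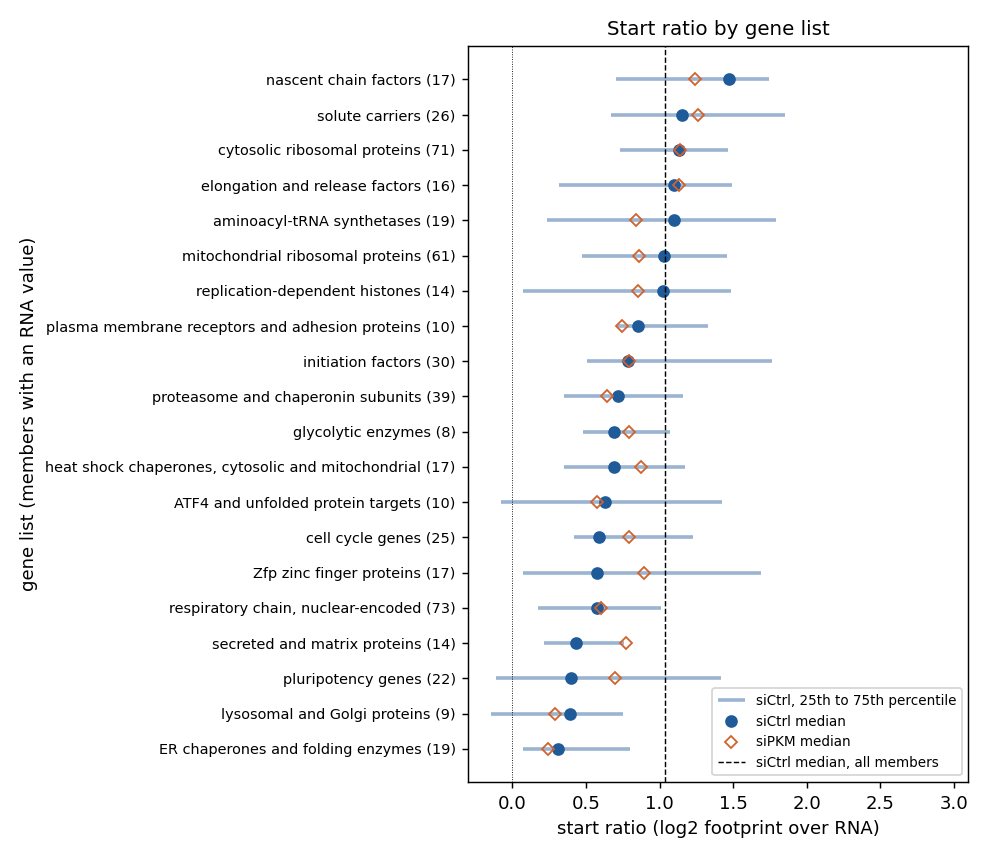
Median start ratio of each of 20 gene lists, siCtrl as filled circles with a bar from the 25th to the 75th percentile over genes and siPKM as open diamonds, with the number of members in brackets. The dashed line is the siCtrl median of all members, 1.03. ER chaperones (0.31) and lysosomal and Golgi proteins (0.39) are at the bottom and nascent chain factors (1.48) at the top, and the percentile bars overlap widely.

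Other readouts were compared over 3 equal classes of members by siCtrl start ratio, low, middle and high (925, 925 and 926 members, medians 0.26, 1.03 and 1.80). The siPKM medians of the same classes were 0.35, 1.06 and 1.74. Footprints in the 5′ UTR were counted per 100 footprints of the whole CDS, with the first 15 and last 5 codons included. Their median was 4.97 in the low, 3.15 in the middle and 2.24 in the high class. The 5′ UTR RNA reads per 100 whole-CDS RNA reads went the same way, at 6.48, 4.48 and 3.0. Members with a high start ratio thus had fewer 5′ UTR reads per CDS read in both kinds of library. Both quantities share first-15 and rest-of-CDS counts with the start ratio. First-15 footprints raise the start ratio and lower the footprint quantity, so these are not independent.

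Translation efficiency of the body, the log2 of rest-of-CDS footprints over RNA relative to the median gene, was 0.37, 0.16 and -0.12 in the low, middle and high class. This shares its counts with the start ratio in opposite directions (Spearman rho -0.39 over 2776 genes), so the 2 measures are not independent. The difference in translation efficiency between siPKM and siCtrl had a median of 0.03 in each class. PKM2 crosslinking, as CLIP stops over control RNA reads on the whole transcript, had log2 medians of -0.57, -0.60 and -0.49 (rho 0.01 over 2776 genes). Over all members it was -0.48 (-0.51 in replicate 1 and -0.46 in replicate 2), against 0.08 over all genes, and nothing says that the replicates came from separate cultures. Median rest-of-CDS RNA in siCtrl was 115 CPM in members and 63.0 over all genes, and RNA is the denominator of this ratio. The CLIP stops came from PKM2_FLAG_HA cells and the RNA from siCtrl cells. The part of either in the contrast was not tested.

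The siPKM and siCtrl libraries were then compared for the footprint start-to-body ratio of each member, as a log2 ratio set to 0 at the median gene. The shift removed was -0.01 for footprints and for RNA. At least 1.5-fold higher in siPKM were 58 of 2922 members (1.98%), where 10.5% of all genes were. At least 1.5-fold lower were 84 (2.87%), where 10.7% of all genes were. Genes outside the members had 17.3% and 17.0% past the fold, with medians of only 19 and 16 first-15 footprints, so the shares past the fold went with the number of footprints.

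The spread over members was 0.29 (SD, log2) against a median counting standard error of 0.19. The 95% counting interval left out 0 in 285 members above and 330 below, together 21.0% of members. Of 348 members with 1000 or more first-15 footprints, 1 was past the fold on the high side and 0 on the low side, within a range of -0.56 to 0.64. With members of 200 or more footprints, 14 were higher and 23 lower. At a fold of 2 the counts were 3 and 7.

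**Figure D5:**
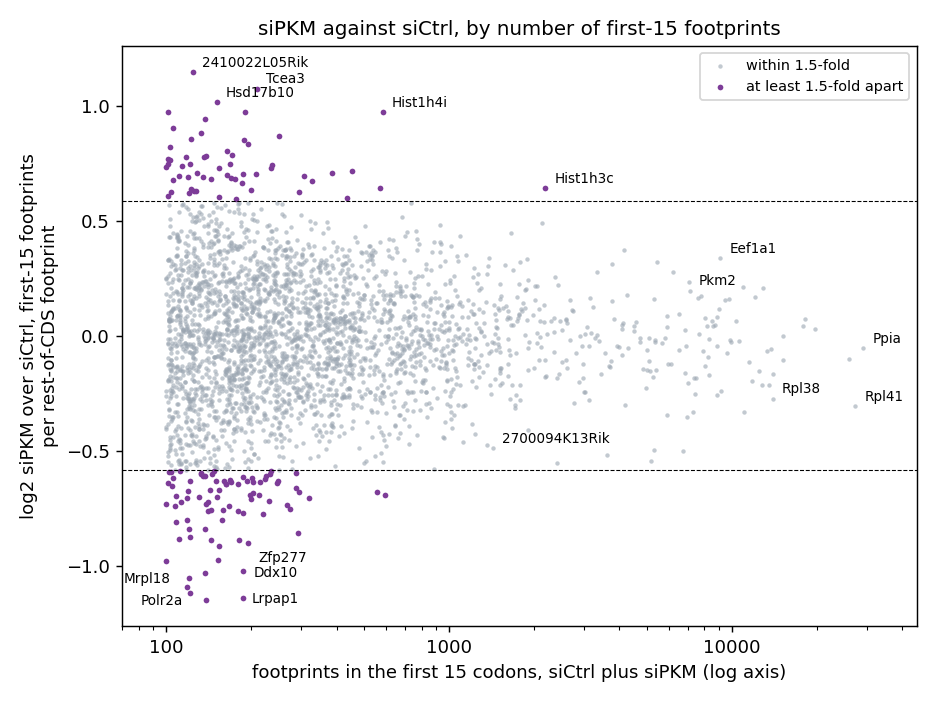
Log2 ratio of siPKM over siCtrl for first-15 footprints per rest-of-CDS footprint (y axis) against the number of first-15 footprints in both groups (x axis, log), with 1 point per member and dashed lines at 1.5-fold. The cloud narrows to the right, and Hist1h3c (0.64) is the only member with 1000 or more footprints beyond the dashed lines.

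The 3 members at least 2-fold higher in siPKM all had under 250 footprints in the window. Coprs (2410022L05Rik in the table), a cofactor of the arginine methyltransferase PRMT5, had 51 first-15 footprints in siCtrl and 73 in siPKM, shares of 12.1% and 23.3%. The log2 ratio was 1.15 (0.58 to 1.71), and the RNA ratio was 0.79, with 40 and 48 RNA reads. Tcea3, a transcription elongation factor, had 97 and 113 footprints, shares of 4.37% (3.56 to 5.31) and 8.72% (7.24 to 10.4), a log2 ratio of 1.07 and an RNA ratio of -0.43. Hsd17b10, a mitochondrial dehydrogenase, had 55 and 96 footprints, shares of 4.66% and 8.96%, a ratio of 1.01 and an RNA ratio of -0.03. In Coprs the RNA in the window was higher in siPKM as well, and in the other 2 it was not.

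Next on the high side were Adnp2 (0.97), Lrrc58 (0.97), Hist1h4i (0.97), Hnrnph3 (0.94), Dtl (0.91), Ptpn23 (0.88), Marcks (0.87), the basement membrane protein Nid1 (0.86) and Anapc11 (0.85). Hist1h4i had the most footprints of these, 311 in siCtrl and 273 in siPKM, with shares of 24.2% and 38.3%. Its RNA share was 9.06% and 13.2%. Marcks, a myristoylated substrate of protein kinase C, had 87 and 164 footprints, shares of 6.81% and 11.7%. Nid1 had 10 and 5 RNA reads and so no start ratio.

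Hist1h3c, the 1 member with 1000 or more footprints past the fold, was singled out after its values were seen. It had 1193 first-15 footprints in siCtrl and 995 in siPKM, shares of 72.7% (70.4 to 74.8) and 80.4% (78.1 to 82.6). The log2 ratio was 0.64 (0.39 to 0.90). Its RNA shares were 54.1% and 53.2%. With the last 5 codons added to the denominator the ratio was 0.50, short of the fold. As a histone H3 gene with near-identical copies it is uncertain.

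The 7 members at least 2-fold lower in siPKM were Polr2a, Lrpap1, Pnpt1, Pabpn1, Mrpl18, Arhgap19 and Ddx10. Polr2a, the largest subunit of RNA polymerase II, had 95 first-15 footprints in siCtrl and 43 in siPKM, shares of 1.17% and 0.522%, a log2 ratio of -1.15 (-1.67 to -0.63). Its RNA went the same way, with 19 and 14 reads and a ratio of -0.71. Lrpap1, an ER chaperone of lipoprotein receptors, had 117 and 69 footprints, shares of 9.97% (8.31 to 11.8) and 4.73% (3.70 to 5.95), and a ratio of -1.14 (-1.58 to -0.70). Its RNA shares were 3.66% and 4.32%, so its RNA did not follow.

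Pnpt1, the mitochondrial polynucleotide phosphorylase, had 86 and 35 footprints (-1.12) with an RNA ratio of -0.02. Pabpn1, the nuclear poly(A)-binding protein, had 90 and 28 (-1.09), with 19 and 9 RNA reads. Mrpl18, of the large mitochondrial ribosomal subunit, had 90 and 30 (-1.05) and an RNA ratio of -0.24. Ddx10, an RNA helicase of ribosome assembly, had 138 and 48 (-1.02) and an RNA ratio of -0.07, and Arhgap19 had 101 and 36 (-1.03). Topors (-0.98), Ccdc59 (-0.98), Toe1 (-0.91), Zfp277 (-0.90) and the centriole protein Cetn2 (-0.89) followed.

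In most lists the members lay on both sides of 0. Among 61 mitochondrial ribosomal proteins, 46 were below 0 and 15 above, with a median of -0.15 (-0.17 uncentred), 7 past the fold on the low side, where 10.7% of all genes and 2.87% of members were, and 0 on the high side. Their RNA start-to-body ratios were also below 0 in 44 of 61, with a median of -0.12, and the median start ratio difference was 0.01. Over all members 1496 were below 0 and the median was -0.01. Of 71 cytosolic ribosomal proteins 48 were below 0 (median -0.06), within -0.56 to 0.37 and with 0 past the fold, while their RNA was split 36 above and 35 below. Nascent chain factors had a median of -0.22 with 11 of 17 below 0 and 1 past the fold.

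Pkm itself had a slightly larger footprint share in siPKM. Its footprint shares were 6.35% (6.18 to 6.51) in siCtrl and 7.14% (6.81 to 7.49) in siPKM, a log2 ratio of 0.20 (0.11 to 0.28), and its RNA shares were 3.83% and 3.90%. The start ratios were 0.77 (0.70 to 0.84) and 0.92 (0.79 to 1.06). The 9 glycolytic enzymes among the members had a median log2 ratio of 0.16, 6 above and 3 below 0, with 0 past the fold.

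For RNA reads the same ratio was at least 1.5-fold higher in siPKM in 200 of 2776 members, where 9.59% of all genes were, and lower in 210, where 9.18% were. The start ratio was at least 1.5-fold higher in siPKM in 286 members, where 14% of all genes were, and lower in 300, where 15.2% were. Of these 586, only 80 were also past the fold the same way in footprints, and in 289 the RNA was past the fold the other way. They had a median of 39 first-15 RNA reads in siCtrl, against 58 over the 2776. With a floor of 40 RNA reads 73 and 95 members were past the fold. At the floor of 10 reads, 151 and 163 of the members past the fold had an interval that left out 0.

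Among 130 members with enough RNA reads whose footprint ratio was past the fold, the RNA ratio had the same sign in 62 and was past the fold the same way in 14. In 80 of them the start ratio was past the fold the same way. Over all 2776 members the footprint and RNA differences had a Spearman rho of 0.03, across genes counted in separate libraries.

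The largest start ratio differences between the groups follow. Ccdc59 had 108 and 44 first-15 footprints and 16 and 36 RNA reads. Its start ratio was 2.72 in siCtrl and 0.29 in siPKM. Rac1, a small GTPase of the actin cytoskeleton, had 122 and 59 footprints and 24 and 51 RNA reads, and its start ratio was 0.82 and -1.18. In both, footprints were lower and RNA reads higher in siPKM.

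The others on the low side included Fam98b (1.21 in siCtrl and -0.67 in siPKM), Bard1, the partner of BRCA1 (1.96 and 0.10), and Zrsr2 (1.84 and -0.00). Topors (1.44 and -0.25), Yae1d1 (1600012F09Rik in the table, 3.50 and 1.85) and Wdr73 (3.02 and 1.49) made up the rest. On the high side were Pipox (0.39 and 2.43), Gtf2a1 of the general factor TFIIA (-0.43 and 1.51) and Gins2 of the replicative helicase (0.73 and 2.46). With them were Tet1, a methylcytosine dioxygenase (-0.50 and 1.11), and Pus7, a pseudouridine synthase (0.78 and 2.35). Ptpn23 (-0.34 and 1.22), Trp53inp1 (0.30 and 1.86) and Sqle of sterol synthesis (0.53 and 2.07) completed that side. In Gtf2a1 the footprint ratio was -0.02 and the RNA reads 39 and 10. In Pus7 it was -0.01 with 72 and 16 RNA reads. The difference there lay in the RNA libraries.

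At the edge of the rule, Atg4b, Idh1 and Morc2a had exactly 100 footprints over both groups, with siCtrl footprint shares of 8.16%, 3.31% and 2.63%. Cenpf, Scfd1 and Tmbim4 had 99 and were not members, with 0.868%, 3.42% and 17.4%.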

How the data were processed

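All values came from 1 table. The authors deposited raw counts of reads in each library for the 5′ UTR, first 15 codons, rest of the CDS, last 5 codons and 3′ UTR of each transcript, per the file headers. It also held counts of CLIP reverse transcription stops for each mature transcript, per the file headers (677571 and 670567 in the CLIP replicates over the genes used). Cutadapt and Bowtie2 with mm9 are named in the submitters' processing notes. Versions, strand, and how reads were assigned to regions or to near-identical copies are not given in the sources used here. Another 2 columns hold values pooled over libraries and were not used, nor were 14 derived log2 columns.

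Groups came from the sample titles. The row with the most RNA reads was kept per symbol, which dropped 3 rows. Names of 2907 members matched a GRCm38.p6 gene table by RefSeq accession, and coordinates of that build are not printed. Log2 ratios had 0.5 added to each count, and siPKM over siCtrl ratios were centred on the median gene. Intervals are 95%: Clopper-Pearson for shares, delta method on the counts for log2 ratios. Called means at least 1.5-fold. Scripts (Python 3.11.15, pandas 2.3.3, scipy 1.17.1) were tested on simulated data.

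The members and 20 gene lists were chosen with earlier results of these data known. Named were the 10 members with most first-15 footprints, the 10 highest and lowest siCtrl shares and start ratios, the 12 highest and lowest siPKM over siCtrl footprint ratios (at least 50 footprints in the higher library), the 8 highest and lowest start ratio differences, list extremes, Pkm and 3 genes on each side of the threshold. Alternatives changed the added count, denominator, member threshold, RNA floor, centring, fold, pooling and CLIP replicate. Some genes that this rule names are not reported here. Planned N-terminal protein features are not analysed here.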

Additional observations from a re-analysis of the deposited data

How the results depend on the processing

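Adding 1 to each count, adding the last 5 codons to the denominator, dropping the RNA floor, not centring and keeping every row left the medians and counts close to those reported. Not centred, 57 members were higher and 93 lower in siPKM. With members of 200 or more footprints, the median footprint shares were 8.87% (siCtrl) and 8.94% (siPKM), the siPKM start ratio 1.08, and the members higher and lower in siPKM 14 and 23 for footprints and 131 and 123 for the start ratio. A floor of 40 RNA reads gave start ratios of 0.81 and 0.78, and 73 and 95 members past the fold. That floor acts on the denominator of the start ratio and so picks lower ratios. At a fold of 2, 3 and 7 members were past it for footprints and 72 and 75 for the start ratio. Requiring an interval that left out 0 gave 151 and 163 for the start ratio and removed 0 of the footprint calls. The median half-width of the footprint interval was 0.38, below the log2 of the fold, 0.585. Most footprint calls could thus hardly fail, and nothing is read from the 0. Reads summed over members gave shares of 8.59% and 8.43% and start ratios of 0.87 and 0.88. The stricter settings hold fewer genes, and the cause of the other differences was not tested. Median CLIP over RNA was -0.51 to -0.46 when either replicate was left out.

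Of 713 values of single members under the alternatives, 0 were counted as reversed. Many of these values could not reverse, because footprint shares have no sign. Settings that changed only which genes were kept could not move siCtrl start ratios, footprint shares or footprint ratios either. The count of reversed values was thus largely fixed in advance, and nothing is read from it. Hist1h3c fell short of the fold at 0.50, and the siCtrl footprint shares of 10 short or histone coding sequences moved with the last 5 codons in the denominator, Rpl41 to 89.6%, Hist1h4h to 70.6% and Tmsb10 to 49.8% among them. The siCtrl start ratios of Rpl41 and Hist1h4h were then 2.95 and 1.85, against 4.78 and 3.39. No paired analysis was possible because there was 1 RNA and 1 RPF library per siRNA group and only the CLIP libraries carry replicate numbers. Depth limits the start ratio: the median member had 54 and 45 RNA reads in the window, against 139 and 112 footprints.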

Other observations

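Selenoprotein H was among the members with the highest start ratios, so the selenoproteins of the table were read out, a list chosen after its value was seen. Selenoproteins insert selenocysteine at an in-frame UGA codon. Of 7 in the table, 4 were members, selenoprotein H among them, and all 4 had a start ratio above 0 in both groups, as had 2385 of 2776 members. Glutathione peroxidase 1 (Gpx1) had 1385 first-15 footprints in siCtrl and 1064 in siPKM, shares of 35.4% and 32.6% over RNA shares of 7.39% and 7.53%, and start ratios of 2.78 and 2.57. Sephs2, a selenophosphate synthetase, had start ratios of 2.12 and 1.61, and Selenos (H47 in the table), an ER-associated degradation factor, 1.44 and 0.62. The footprint start-to-body ratio was lower in siPKM in all 4, as it was in 1496 of 2922 members. The log2 ratios were -0.16 for Gpx1, -0.28 for Sephs2, -0.49 for selenoprotein H and -0.74 for Selenos. Selenos had only 68 and 39 first-15 footprints in siCtrl and siPKM. The other 3, Gpx4, Txnrd1 and Txnrd3, had 2, 7 and 2 first-15 footprints in siCtrl and 1, 4 and 6 RNA reads.

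In 4 rows the first 15 and last 5 codons together held more reads than the codons between them in all 4 libraries. They were Rpl41 and the histone genes Hist1h4h, Hist1h3c and Hist1h2bb, and all 4 were members. Rpl41 encodes a very small protein, so these windows are a large part of its CDS and nothing is read from its place here. In Hist1h2bb the siCtrl RNA reads were 2400 in the first 15 codons, 1008 between and 645 in the last 5.

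Atf4, a stress-response transcription factor known for its upstream open reading frames, had 98.9 5′ UTR footprints per 100 whole-CDS footprints in siCtrl. Its 5′ UTR RNA reads are not given here for comparison. Its first-15 footprints numbered 166 in siCtrl and 135 in siPKM, shares of 16.9% and 20.5% over RNA shares of 4.41% and 3.76%. The start ratio was 2.14 in siCtrl and 2.72 in siPKM, the highest of the ATF4 and unfolded protein list in siCtrl.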
